A study of Mus musculus with 24 samples.

Results

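The voltage-gated sodium and calcium channel genes were 40 of the 22889 entries of an RNA-seq expression table, chosen by gene symbol alone: the Scn genes with a number and a final a or b, and the Cacna, Cacnb and Cacng genes with a number. They comprised 14 sodium channel genes and 26 calcium channel genes, of which 20 encode pore-forming subunits and 20 encode auxiliary subunits. Motor neurons had been made from mouse embryonic stem cells (mESCs), sorted for a green fluorescent protein (GFP) reporter and sequenced from polyadenylated RNA, and each of the 24 samples has an RPKM value per gene (reads per kilobase of transcript, scaled to the mapped reads of the sample). Oculomotor neuron (OMN) cultures were derived from Islet1-GFP mESCs carrying NesEPhox2a, in which a nestin enhancer active in neural progenitors drives the transcription factor Phox2a, and were patterned for 5 days with 250 nM of the smoothened agonist SAG and 100 ng/ml FGF8. Spinal motor neuron (SC) cultures came from an Hb9-GFP mESC line and were patterned for 5 days with 500 nM SAG and 100 nM retinoic acid. Each culture gave a GFP+ and a GFP- fraction, with 6 samples in each of the 4 groups. The labels number the samples but do not say that they came from separate differentiations, so p-values measure the spread between these samples. The line, the reporter, the Phox2a transgene and the patterning change together between the cultures and cannot be told apart, and a bulk level does not tell fewer cells of a type from less RNA per cell.

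Voltage-gated sodium channels open when the membrane depolarizes and carry the upstroke of the action potential, while voltage-gated calcium channels couple depolarization to transmitter release, gene expression and firing pattern. Both have a large pore-forming alpha subunit, which sets the current type, and smaller auxiliary subunits, which set how much channel reaches the membrane and how it opens. Several of the genes named Cacng encode proteins that mainly escort AMPA-type glutamate receptors and are known as TARPs (transmembrane AMPA receptor regulatory proteins).

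Depth was estimated from the smallest step between RPKM values and ran from 752529 to 7675428 reads per sample. The 16 samples of replicates 1 to 4 had 752529 to 4642207 reads, fewer than the 4822576 to 7675428 of the 8 samples of replicates 5 and 6. Isl1 was 141 to 369 RPKM in OMN GFP+ and 0.696 to 1.87 in OMN GFP- samples, and Mnx1 (the gene of HB9) was 43.1 to 149 RPKM in SC GFP+ and at most 6.91 in OMN GFP+ samples. Phox2a ran from 5.83 to 53.4 RPKM in OMN GFP+ and overlapped the 3.09 to 6.43 RPKM of OMN GFP-. The library labelled SC GFP+ replicate 4 stood apart, with Isl1 at 7.63 RPKM and a sum of 10 neuron markers at 90.7 RPKM, near the 64.7 to 297 RPKM of the SC GFP- samples. The library labelled SC GFP- replicate 4 had Mnx1 at 69.4 RPKM, above the 43.1 RPKM of its GFP+ partner. Some of the results that rest on these libraries are also given without the pair. The sum of 4 pluripotency markers was 666 to 9856 RPKM in OMN GFP- samples and 0.315 to 253 RPKM in OMN GFP+ samples. In the spinal culture it was 14.3 to 12385 RPKM in GFP+ samples (median 919) and 74.4 to 5724 in GFP- samples (median 231). The highest value was that of SC GFP+ replicate 5, which was kept in the settings without the replicate 4 pair.

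Between the GFP+ groups, 1 of the 36 channel genes tested was called, against 0.603% of all genes. It is not a pore: Cacng3, a TARP, was higher in oculomotor neurons. A gene that was not called may still differ. Between the fractions of the oculomotor culture, 9 of 40 genes were higher in GFP+ cells and none was lower, against 3.81% of all genes higher and 2.34% lower. The 9 included the embryonic sodium channel Scn3a, the N-type channel Cacna1b, the R-type channel Cacna1e and the alpha2delta subunit Cacna2d1. Between the fractions of the spinal culture, 2 of 40, Cacna1b and Cacna2d1, were higher in GFP+ cells, against 0.397% of all genes higher and 0.83% lower. The step from GFP- to GFP+ was called as unequal between the cultures for Cacng3 and, narrowly, for Cacna1e, against 0.32% of all genes. The comparisons used limma on log2(RPKM + 1) over all genes, a gene was called at an adjusted p under 0.05, and each log2 difference below is on that scale with its standard error (SE).

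No channel gene was at 0 RPKM in all 24 samples, and 12 did not reach 1 RPKM in any sample. A mean of at least 1 RPKM was reached by 18 channel genes in OMN GFP+, 20 in SC GFP+, 5 in OMN GFP- and 10 in SC GFP-. The number of channel genes above 0.1 RPKM in all 6 samples was 21 in OMN GFP+, 15 in SC GFP+, 8 in OMN GFP- and 9 in SC GFP-. The heat map of all samples shows the GFP+ columns of both cultures brighter in the rows of Scn3a, Cacna1b and Cacna2d1, with SC GFP+ replicate 4 the darkest SC GFP+ column in these rows.

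**Figure D1:**
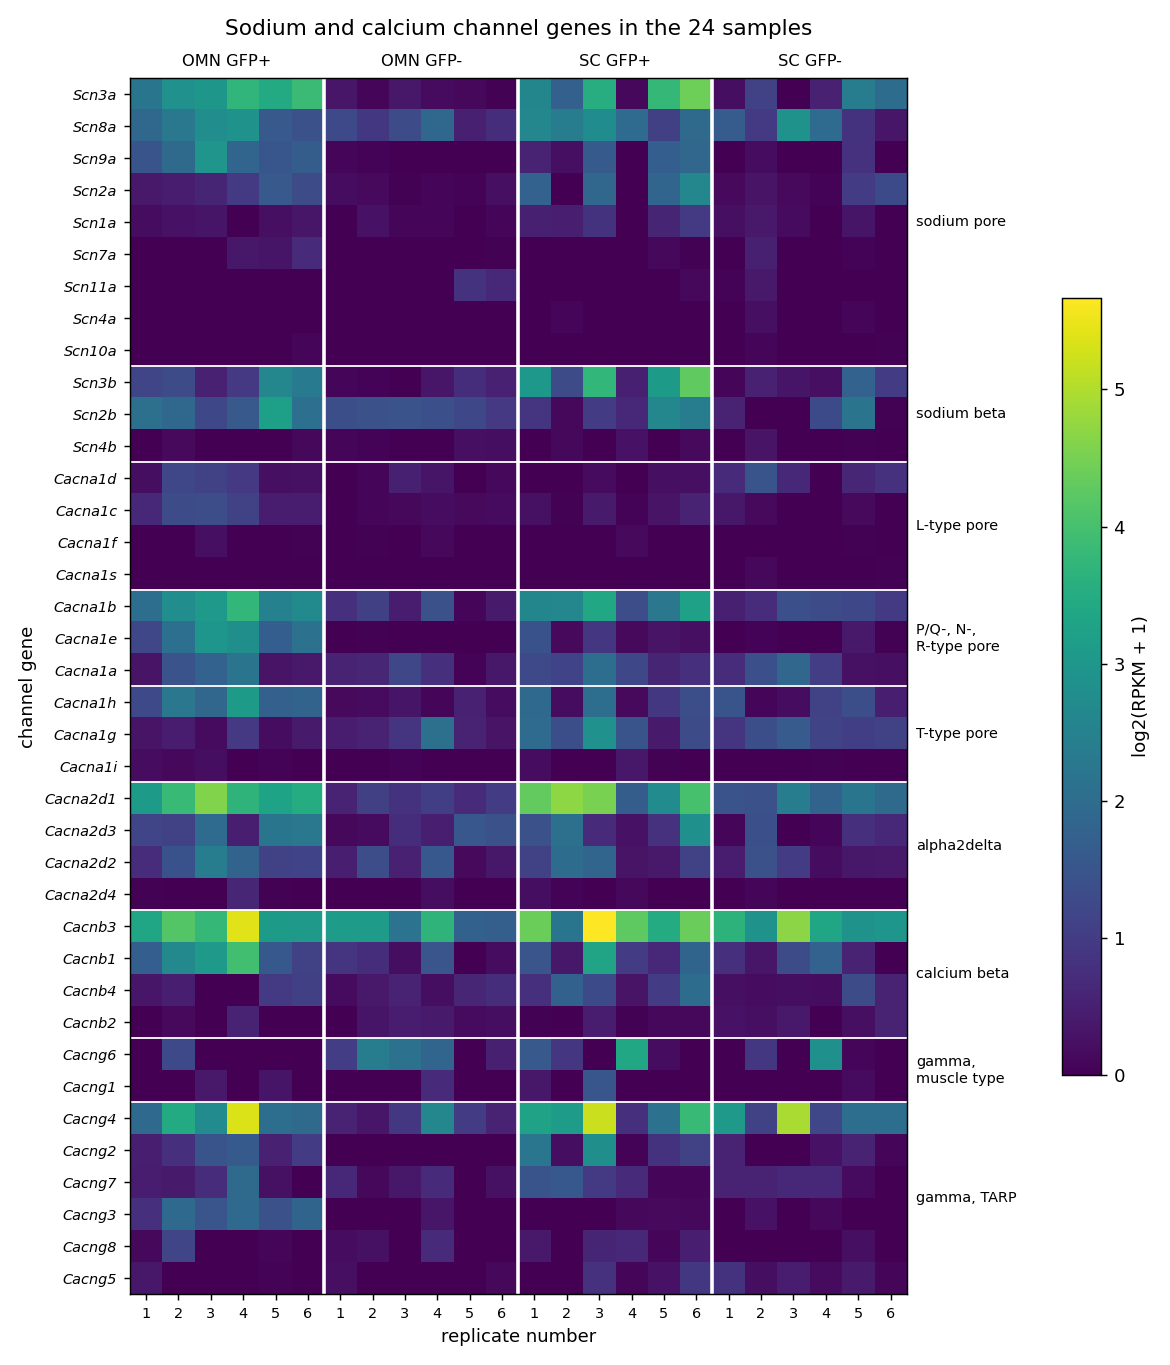
Each row is a channel gene reported here, grouped by subunit class, each column 1 of the 24 samples in 4 groups of 6, and the color is log2(RPKM + 1). Scn3a is bright in all 6 OMN GFP+ columns and dark in SC GFP+ replicate 4, at 0.0822 RPKM, while Cacng3 is brightest in the OMN GFP+ columns, at 0.698 to 2.84 RPKM.

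Upstream sequence is shown for 3 genes called between the fractions: Cacna1b and Cacna2d1, which were called in both cultures, and Scn9a, which was called in the oculomotor culture. The 250 bases before the RefSeq start (GRCm38.p6) are printed 5′ to 3′ on the gene's strand, and capitals mark a CAGCTG E-box, a CCAAT box or a GGGCGG GC box on either strand.
Cacna1b, chr2:24763153-24763402, minus strand: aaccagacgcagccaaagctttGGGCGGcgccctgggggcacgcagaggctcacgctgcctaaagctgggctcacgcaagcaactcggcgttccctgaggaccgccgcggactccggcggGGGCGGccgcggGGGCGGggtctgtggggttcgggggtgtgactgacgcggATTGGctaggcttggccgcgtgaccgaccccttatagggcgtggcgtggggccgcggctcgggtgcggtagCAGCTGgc
Cacna2d1, chr5:15934441-15934690, plus strand: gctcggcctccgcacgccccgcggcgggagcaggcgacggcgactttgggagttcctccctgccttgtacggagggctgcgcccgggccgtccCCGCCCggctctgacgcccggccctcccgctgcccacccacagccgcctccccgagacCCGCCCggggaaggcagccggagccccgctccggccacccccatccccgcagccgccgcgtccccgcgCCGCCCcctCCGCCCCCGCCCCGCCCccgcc
Scn9a, chr2:66634963-66635212, minus strand: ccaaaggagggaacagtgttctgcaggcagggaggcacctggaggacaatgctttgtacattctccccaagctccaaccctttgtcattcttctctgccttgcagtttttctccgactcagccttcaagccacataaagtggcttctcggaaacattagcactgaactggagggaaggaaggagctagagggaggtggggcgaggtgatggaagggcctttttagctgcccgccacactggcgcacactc
The window of Cacna1b held an E-box, a CCAAT box and GC boxes, that of Cacna2d1 held GC boxes, and that of Scn9a held none of the 3 motifs. RefSeq windows were found for 30 of the 40 channel genes (41 windows), and 19 windows, of 16 genes, contained no exon annotated in GENCODE M21. CAGCTG was in 11 of the 41 channel gene windows and in 13.0% of all 32851 windows, CCAAT in 10 of 41 and 33.8%, GGGCGG in 15 of 41 and 32.7%, and TATAAA in 2 of 41 and 12.4%. TTCAGCACC, a stretch of the RE1 element bound by the neuronal repressor REST, was in no window of a channel gene and in 0.301% of all windows. A shared run of letters is a description and not a binding site.

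Of the pore-forming sodium channel genes, 10 in all, Scn3a had the highest mean over all samples. Scn3a encodes Nav1.3, a channel of embryonic neurons, and lies on chromosome 2 (65457118 to 65567627, GRCm38) in a cluster with Scn2a, Scn1a, Scn9a and Scn7a. Its level was 3.60 to 13.6 RPKM in OMN GFP+ samples (median 8.53), 0.0259 to 0.280 in OMN GFP- (median 0.101), 0.0822 to 20.2 in SC GFP+ (median 7.81) and 0 to 4.22 in SC GFP- (median 0.786). All 6 OMN GFP+ samples were above all OMN GFP- samples, while the spinal fractions overlapped, with SC GFP+ replicates 2 and 4 at 2.35 and 0.0822 RPKM and SC GFP- replicates 5 and 6 at 4.22 and 3.02 RPKM. The difference between oculomotor fractions was 3.00 ± 0.55 (SE, adjusted p = 0.0012), and it was 2.71 in replicates 1 to 4 and 3.59 in replicates 5 and 6. Between spinal fractions the difference was 1.66 ± 0.55 (adjusted p = 0.185), and without the spinal pair of replicate 4 it was 2.07 (adjusted p = 0.0187). Between the GFP+ groups the difference was 0.49 ± 0.63 (adjusted p = 0.829).

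Scn9a, which encodes Nav1.7, was the other sodium channel pore called between oculomotor fractions. It measured 1.79 to 6.77 RPKM in OMN GFP+ samples (median 2.39) and at most 0.0539 RPKM in OMN GFP- samples, with no overlap, and the difference was 1.88 ± 0.30 (adjusted p = 0.000291). In SC GFP+ samples it ran from 0 to 2.63 RPKM, and the GFP+ groups overlapped (log2 difference 0.91 ± 0.43, adjusted p = 0.496). That difference was 1.46 in replicates 1 to 4 and -0.19 in replicates 5 and 6. Scn9a is best known from sensory and sympathetic neurons, and the sum of 4 sensory neuron markers was 28.0 to 147 RPKM in OMN GFP+, 0.643 to 2.28 in OMN GFP-, 3.30 to 56.3 in SC GFP+ and 0.811 to 12.9 in SC GFP-. None of these markers was at 0 throughout a group, Pou4f1 was called higher in OMN GFP+ than in OMN GFP-, and the part of such cells in the Scn9a level was not tested. An unstranded library also cannot separate Scn9a from Gm13629, which shares 180 exon bases on the opposite strand.

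Scn8a and Scn2a, the pores that serve the initial segment and axon of mature and young neurons, were detected in both GFP+ groups. Scn8a measured 1.65 to 6.46 RPKM in OMN GFP+ (median 3.27) and 1.11 to 5.79 in SC GFP+ (median 3.64), with a difference of 0.00 ± 0.39. Scn8a was also the main sodium pore of the GFP- fractions, where its median share of the summed sodium pore RPKM was 71.3% in OMN and 53.5% in SC. With the samples of a culture blocked by replicate number, Scn8a passed the threshold between oculomotor fractions (1.04, adjusted p = 0.0159, against 0.151 without the block). Scn2a had a mean of 2.15 ± 1.95 RPKM (SD, n = 6) in SC GFP+ and 0.923 ± 0.676 in OMN GFP+, with overlapping values and an adjusted p of 0.762. All 6 OMN GFP+ samples were above all OMN GFP- samples for Scn2a, at a log2 difference of 0.75 and an adjusted p of 0.282. Scn1a, Scn4a, Scn7a, Scn10a and Scn11a, which include the skeletal muscle channel and the sensory neuron channels, did not exceed 0.959 RPKM in any sample. Scn4a was at 0 in all 12 OMN samples, and Scn10a was above 0 in 1 of them.

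Summed over the 10 sodium pores, the level was 8.64 to 23.2 RPKM in OMN GFP+ (median 18.1) and 3.11 to 32.0 in SC GFP+ (median 16.9), against 1.29 to 3.14 in OMN GFP- and 2.64 to 7.26 in SC GFP-. Scn3a made up a median of 49.2% of this sum in OMN GFP+ and 41.2% in SC GFP+. The library labelled SC GFP+ replicate 4 had the lowest share, 2.64%, and there Scn8a held 95.5%.

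The 4 sodium channel beta genes encode small membrane proteins that tune gating and act in adhesion. Scn3b, the member with the highest mean, measured 0.422 to 18.6 RPKM in SC GFP+ (median 7.32), 0.0502 to 2.41 in SC GFP- (median 0.338), 0.430 to 5.13 in OMN GFP+ (median 1.35) and 0 to 0.683 in OMN GFP- (median 0.167). The groups overlapped in all comparisons, and the difference closest to the threshold was that between spinal fractions, 2.01 ± 0.51 (adjusted p = 0.0515). With the samples blocked by replicate number within each culture it passed (adjusted p = 0.0224), and without the spinal pair of replicate 4 it was 2.36 (adjusted p = 0.00627). Between the GFP+ groups Scn3b differed by -1.19 ± 0.64 (adjusted p = 0.568). Scn2b had a mean of 3.45 ± 2.43 RPKM (SD, n = 6) in OMN GFP+ and 1.97 ± 2.14 in SC GFP+ (adjusted p = 0.644). Scn4b did not exceed 0.237 RPKM.

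The L-type pores carry long-lasting calcium currents that couple activity to transcription and contraction. Both neuronal L-type genes were low. Cacna1c measured 0.348 to 1.51 RPKM in OMN GFP+ (median 0.857), 0 to 0.140 in OMN GFP- (median 0.0950), 0.0203 to 0.461 in SC GFP+ (median 0.212) and 0 to 0.297 in SC GFP- (median 0.0569). The oculomotor fractions did not overlap, with a difference of 0.76 ± 0.14 (adjusted p = 0.0017), and the value was 0.99 in replicates 1 to 4 and 0.28 in replicates 5 and 6. The GFP+ groups overlapped, with a difference of 0.61 ± 0.20 (adjusted p = 0.266) that was 0.90 in replicates 1 to 4 and 0.02 in replicates 5 and 6.

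Cacna1d, the L-type gene with the highest mean over all samples, had estimates of opposite sign in the cultures, neither of which passed the threshold. It measured 0.163 to 1.32 RPKM in OMN GFP+ (median 0.553) and 0 to 0.415 in OMN GFP- (median 0.0816), but 0 to 0.180 in SC GFP+ (median 0.0625) and 0 to 1.79 in SC GFP- (median 0.584). In the oculomotor culture the GFP+ sample was higher than the GFP- sample of the same number in 6 of 6 pairs, and in the spinal culture it was lower in 5 of 6, with both at 0 in the remaining pair of replicate 4. The differences were 0.48 ± 0.20 (adjusted p = 0.183) and -0.60 ± 0.20 (adjusted p = 0.194), and their interaction, 1.08 ± 0.29, did not pass (adjusted p = 0.122). Blocked by replicate number within each culture the interaction passed (adjusted p = 0.0385), as it did without the spinal pair of replicate 4, at 1.20 (adjusted p = 0.0357). Cacna1d shares 589 exon bases with Chdh on the opposite strand, and these reads cannot be told apart. The retinal and skeletal muscle L-type genes, Cacna1f and Cacna1s, did not exceed 0.172 RPKM.

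The P/Q-, N- and R-type pores Cacna1a, Cacna1b and Cacna1e are the channels that trigger transmitter release at nerve terminals. Cacna1b, the N-type pore (chr2:24603887-24763152, minus strand), was the highest of them, with 3.12 to 12.4 RPKM in OMN GFP+ (median 5.70), 0.0626 to 1.64 in OMN GFP- (median 0.539), 1.52 to 9.53 in SC GFP+ (median 5.11) and 0.413 to 1.60 in SC GFP- (median 1.15). The oculomotor fractions did not overlap, and the spinal fractions overlapped only through SC GFP+ replicate 4, at 1.52 RPKM. The difference was 2.10 ± 0.35 between oculomotor fractions (adjusted p = 0.000372) and 1.56 ± 0.35 between spinal fractions (adjusted p = 0.0199), with 6 of 6 same-numbered pairs higher in GFP+ in each culture. In replicates 1 to 4 and in replicates 5 and 6 these were 1.98 and 2.35 in the oculomotor culture and 1.51 and 1.65 in the spinal culture. The spinal call of Cacna1b was made in 21 of the 24 fits that each left out 1 sample and was lost without SC GFP+ replicate 3 or 6 or SC GFP- replicate 1 (adjusted p up to 0.0672), and its adjusted p was 0.364 in replicates 1 to 4 and 0.246 in the spinal samples alone. Between GFP+ groups the difference was 0.23 ± 0.40 (adjusted p = 0.881).

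Cacna1e, the R-type pore (chr1:154390731-154884501, minus strand), had its highest levels in OMN GFP+ samples. Its level was 1.32 to 6.85 RPKM in OMN GFP+ (median 3.29), 0 to 0.0187 in OMN GFP- (median 0.00321), 0.102 to 1.69 in SC GFP+ (median 0.204) and 0 to 0.316 in SC GFP- (median 0.0195). The GFP+ groups overlapped through 1 spinal sample, replicate 1 at 1.69 RPKM, which lay above the lowest oculomotor sample, and 5 of 6 oculomotor samples were above every spinal sample. By the length of the longest transcript these levels correspond to about 1214 reads in the OMN GFP+ samples together, 2 in OMN GFP-, 148 in SC GFP+ and 38 in SC GFP-. Between oculomotor fractions the difference was 2.14 ± 0.26 (adjusted p = 8.68e-06), and between spinal fractions it was 0.44 ± 0.26 (adjusted p = 0.595). The interaction of culture and fraction was 1.70 ± 0.36 (adjusted p = 0.0336), at 1.63 in replicates 1 to 4 and 1.84 in replicates 5 and 6. This call was narrow, since over the 24 fits that each left out 1 sample the adjusted p ran from 0.00757 to 0.0725 and was under 0.05 in 9. Over all 36 alternatives, these 24 among them, the interaction passed in 19, with adjusted p up to 0.619. With an offset of 0.1 RPKM it did not pass. The spinal means, 0.529 RPKM in GFP+ and 0.0670 in GFP-, lie below the 1 RPKM added before taking logarithms. Between GFP+ groups the difference of 1.62 ± 0.38 did not pass in the fit of the 12 GFP+ samples (adjusted p = 0.0893) and passed in the fit of all 24 (adjusted p = 0.000593).

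Cacna1a, the P/Q-type pore, showed no call. It had means of 1.41 ± 1.39 RPKM (SD, n = 6) in OMN GFP+ and 1.38 ± 0.935 in SC GFP+, and 435 of its exon bases are shared with Gm16183 on the opposite strand. Within the class, Cacna1e made up 27.4% to 41.3% of the summed RPKM in OMN GFP+ samples (median 30.6%) and 1.58% to 20.9% in SC GFP+ samples (median 4.29%), so these shares did not overlap. Cacna1b made up a median of 58.4% and 75.1% in the same groups.

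The T-type pores open near rest and support bursting and pacemaking. Cacna1h, the highest of the class, measured 1.37 to 7.46 RPKM in OMN GFP+ (median 2.58), 0.0759 to 0.425 in OMN GFP- (median 0.126), 0.105 to 3.14 in SC GFP+ (median 1.23) and 0.0605 to 1.77 in SC GFP- (median 0.761). Cacna1h shares 158 exon bases with Tpsg1 on the opposite strand. The oculomotor fractions of Cacna1h did not overlap (log2 difference 1.76 ± 0.36, adjusted p = 0.00325), while the spinal fractions and the GFP+ groups did. Cacna1g ran the other way between GFP+ groups, at 0.116 to 0.907 RPKM in OMN and 0.327 to 6.27 in SC (medians 0.281 and 1.67). Their ranges overlapped, and the difference, -1.16 ± 0.36, did not pass (adjusted p = 0.231). As shares of the class, Cacna1h made up 78.9% to 93.2% of the summed RPKM in OMN GFP+ and 4.86% to 71.5% in SC GFP+, and Cacna1g 3.91% to 13.5% and 26.2% to 92.2%, so neither share overlapped between the groups. These shares are nearly complementary, since Cacna1i held at most 13.2% in SC GFP+, and do not count as separate results. Shares, here and for Cacna1e above, were described and not tested. The summed T-type level overlapped between them, with means of 3.76 ± 2.39 RPKM in OMN GFP+ and 3.91 ± 3.17 in SC GFP+ (SD, n = 6). Cacna1i did not exceed 0.286 RPKM.

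**Figure D2:**
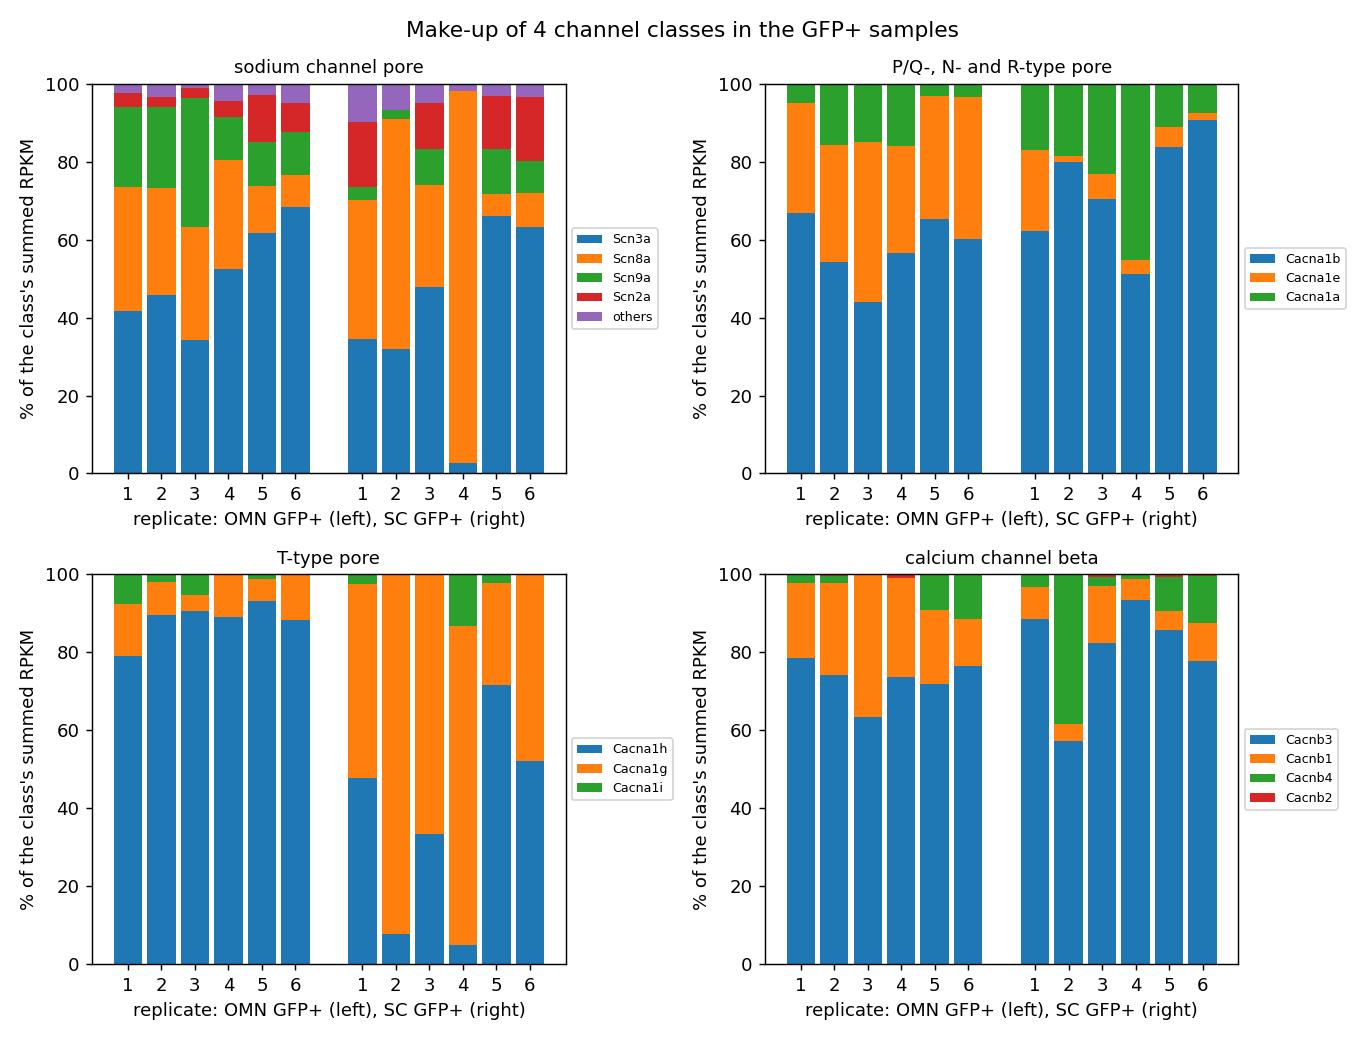
Each bar is a GFP+ sample, OMN replicates 1 to 6 at left and SC replicates 1 to 6 at right, and the colors give each gene's share of the summed RPKM of its class. Cacna1h fills 78.9% to 93.2% of the T-type bars in OMN samples, and Cacna1e 27.4% to 41.3% of the P/Q-, N- and R-type bars there.

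The alpha2delta subunits bring calcium channels to the membrane and include the targets of gabapentin. Cacna2d1 (chr5:15934691-16374511, plus strand) measured 7.50 to 23.1 RPKM in OMN GFP+ (median 11.2), 0.472 to 1.11 in OMN GFP- (median 0.887), 2.16 to 25.1 in SC GFP+ (median 17.0) and 1.66 to 4.17 in SC GFP- (median 2.69). It was higher in GFP+ cells of both cultures, by 2.80 ± 0.40 (adjusted p = 7.88e-05) in the oculomotor culture, with no overlap, and by 1.80 ± 0.40 (adjusted p = 0.0204) in the spinal culture, where SC GFP+ replicate 4 lay within the GFP- range. Without the spinal pair of replicate 4 the spinal difference was 2.18 (adjusted p = 0.000432). The spinal call of Cacna2d1 was narrow, since it was called in 19 of the 24 fits that each left out 1 sample, and its adjusted p was 0.255 in replicates 1 to 4 and 0.301 in the spinal samples alone. It was lost without SC GFP+ replicate 1, 2, 3 or 6 or SC GFP- replicate 1 (adjusted p up to 0.0683). Between GFP+ groups the difference was 0.01 ± 0.50. Cacna2d1 was also the 1 channel gene whose GFP- groups did not overlap, with every OMN GFP- sample below every SC GFP- sample (log2 difference -1.0 ± 0.40, adjusted p = 0.323). Cacna2d2 and Cacna2d3 had means of 1.90 ± 1.28 and 2.21 ± 1.44 RPKM in OMN GFP+ and 1.42 ± 1.17 and 2.11 ± 2.27 in SC GFP+, with no call, and Cacna2d4 did not exceed 0.522 RPKM. Cacna2d2 shares 82 exon bases with Gm17141 on the opposite strand.

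Cytoplasmic calcium channel beta subunits bind the pore and chaperone it to the membrane. Cacnb3 was the highest channel gene of this group, at 7.42 to 41.5 RPKM in OMN GFP+ (median 10.9), 2.27 to 11.9 in OMN GFP- (median 5.53), 3.58 to 49.8 in SC GFP+ (median 18.9) and 6.36 to 24.7 in SC GFP- (median 8.06). Its groups overlapped in every comparison, and the difference between oculomotor fractions, 1.22 ± 0.50 (adjusted p = 0.177), passed when samples were blocked by replicate number within each culture (adjusted p = 0.00471). Cacnb1 was called between oculomotor fractions, at 1.18 to 14.4 RPKM in GFP+ and 0 to 1.80 in GFP- samples, which overlapped (log2 difference 1.76 ± 0.49, adjusted p = 0.032). That call was lost in 7 of the 24 fits that each left out 1 sample. Cacnb1 shares 80 exon bases with Gm11629 on the opposite strand. Cacnb4 had means of 0.450 ± 0.470 RPKM in OMN GFP+ and 1.47 ± 1.06 in SC GFP+ (adjusted p = 0.477) and shares 1433 exon bases with A430018G15Rik on the opposite strand, and Cacnb2 did not exceed 0.481 RPKM.

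Among the TARPs, Cacng3 (chr7:122670492-122769393, plus strand) was the gene called between the GFP+ groups. Cacng3 encodes TARP gamma-3, which associates with AMPA receptors. Its level in the 6 OMN GFP+ samples was 0.698, 2.84, 1.83, 2.80, 1.63 and 2.55 RPKM (replicates 1 to 6, median 2.19). It was 0 in 5 of 6 OMN GFP- samples and 0.267 RPKM in the other, 0 to 0.0996 RPKM in SC GFP+ (median 0.0461) and 0 to 0.213 RPKM in SC GFP- (median 0). Every OMN GFP+ sample was above every sample of the other 3 groups. The level is low in absolute terms, since 1 read of Cacng3 is worth 0.0950 RPKM at the median depth, and the 4 groups hold about 140, 1, 5 and 2 reads in the order OMN GFP+, OMN GFP-, SC GFP+ and SC GFP-.

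The difference of Cacng3 was 1.49 ± 0.23 between GFP+ groups (adjusted p = 0.00833), 1.50 ± 0.15 between oculomotor fractions (adjusted p = 6.3e-07) and -0.00 ± 0.15 between spinal fractions, with an interaction of 1.50 ± 0.21 (adjusted p = 0.00053). Because 1 RPKM was added before taking logarithms, the change of a gene this low is understated, and with an offset of 0.1 RPKM the difference between GFP+ groups was 3.83. The GFP+ difference was 1.50 in replicates 1 to 4 and 1.48 in replicates 5 and 6, but in replicates 1 to 4 alone, with 4 samples a group, its adjusted p was 0.176. It stayed under 0.05 in each of the 12 fits that left out 1 GFP+ sample.

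**Figure D3:**
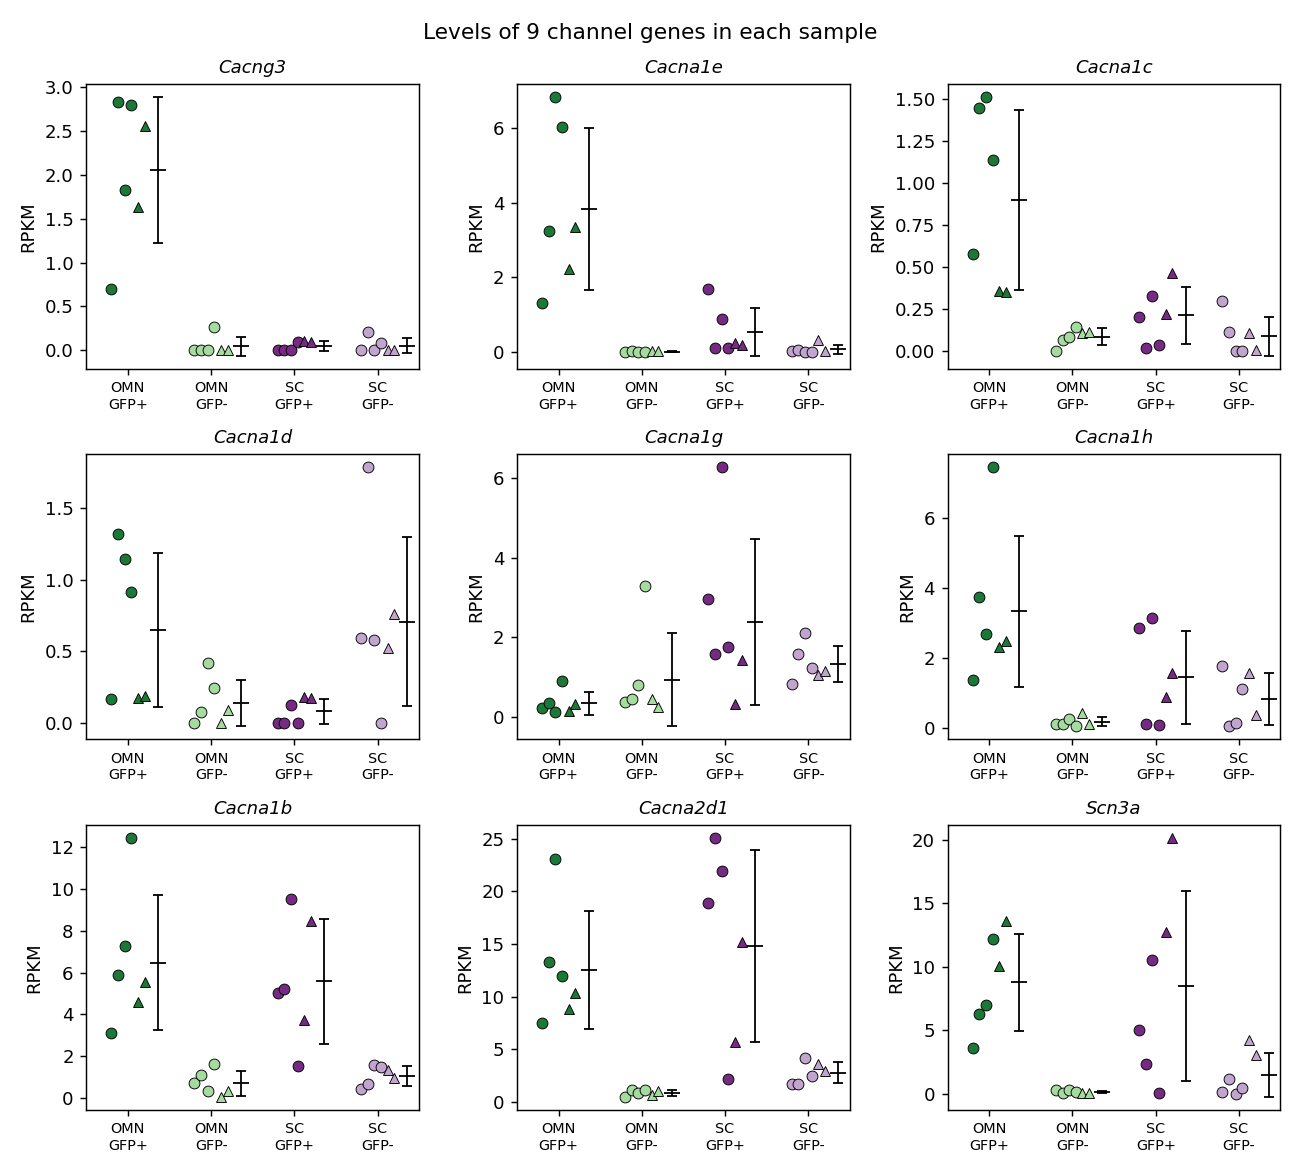
Points are RPKM of single samples (circles, replicates 1 to 4; triangles, the deeper replicates 5 and 6) in the 4 groups, and the black marks are the mean ± SD of 6 samples. Cacng3 lies between 0.698 and 2.84 RPKM in OMN GFP+ and at or below 0.267 RPKM elsewhere, and Cacna1d is low in SC GFP+ and OMN GFP- samples.

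The other TARPs had no call. Cacng4, the highest of them, measured 2.83 to 40.5 RPKM in OMN GFP+ (median 4.40), 0.262 to 5.18 in OMN GFP- (median 0.680), 0.716 to 35.9 in SC GFP+ (median 8.13) and 1.16 to 29.7 in SC GFP- (median 3.12), and the groups overlapped in every comparison. Its difference between oculomotor fractions was 1.93 ± 0.71 (adjusted p = 0.122), and 0.00242 was the adjusted p with the samples blocked by replicate number within each culture. Cacng2, or stargazin, was at 0 in all 6 OMN GFP- samples and at 0.391 to 2.05 RPKM in OMN GFP+, so these fractions did not overlap (log2 difference 0.97 ± 0.34, adjusted p = 0.102). In SC GFP+ it ran from 0.0465 to 6.08 RPKM. Cacng2 shares 323 exon bases with A730060N03Rik on the opposite strand. Cacng5, Cacng7 and Cacng8 did not exceed 2.90 RPKM in any sample.

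The muscle-type gamma genes are Cacng1, the subunit of the skeletal muscle L-type channel, which did not exceed 1.85 RPKM, and its relative Cacng6. Cacng6 was 0 in 5 of 6 OMN GFP+ samples and 1.37 RPKM in the other, 0 to 4.27 RPKM in OMN GFP- (median 1.83), 0 to 9.32 in SC GFP+ (median 0.505) and 0 to 6.19 in SC GFP- (median 0.0359). The 2 highest spinal values, 9.32 and 6.19 RPKM, came from the replicate 4 pair, and the groups overlapped in every comparison. Its difference between oculomotor fractions was -1.11 ± 0.56 (adjusted p = 0.306), and blocked by replicate number within each culture it was the 1 channel gene called lower in GFP+ (adjusted p = 0.017). The 8 muscle markers summed to at most 17.4 RPKM in any sample, and 2 of them, Myh6 and Myl7, were called lower in OMN GFP+ than in OMN GFP-, the comparison in which Cacng6 was lower with the block. The median difference of the 8 was 0.04 there, none was called higher, and their part in the Cacng6 result was not tested.

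Between GFP+ groups 1 of 36 channel genes was called, too few to read against 0.603% of the 19240 genes tested in either direction, 0.353% higher and 0.249% lower. The median log2 difference of the channel genes was -0.01, beside -0.04 over all genes, and 17 of 36 estimates were above 0. Groups that did not overlap were found for Cacng3 alone, against 0.733% of all genes in that direction and 0.696% in the other. Between the GFP- groups limma called none of 40, against 0.96% of 22179 genes (0.41% higher and 0.55% lower in OMN), with 2 channel genes, Cacna1d and Cacna2d1, at an unadjusted p under 0.05, and a median difference of -0.08 beside -0.04 over all genes. Cacna2d1 was the 1 gene without overlap there, against 0.87% of genes in that direction and 0.397% in the other.

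Between oculomotor fractions 9 of 40 channel genes were higher in GFP+ and 0 lower, against 6.15% of all genes in either direction, 3.81% higher and 2.34% lower. The 9 were Scn3a, Scn9a, Cacna1c, Cacna1b, Cacna1e, Cacna1h, Cacna2d1, Cacnb1 and Cacng3, so 6 of 20 pore-forming and 3 of 20 auxiliary genes. The groups did not overlap for 10 channel genes, all higher in GFP+, against 4.04% of all genes higher and 2.48% lower without overlap, and these were the called genes other than Cacnb1, with Cacng2 and Scn2a. The median difference over the channel genes was 0.38, beside 0 over all genes, and 33 of 40 estimates were above 0. Between spinal fractions 2 of 40 were higher and 0 lower, against 1.23% of all genes in either direction, 0.397% higher and 0.83% lower, with a median difference of 0.36, beside 0 over all genes, and 31 estimates above 0. No channel gene was without overlap between spinal fractions, where 0.0721% of genes were higher and 0.397% lower without overlap. The interaction called 2 of 40, against 0.32% of all genes, 0.262% higher and 0.0586% lower, with a median of 0.03 beside 0.01 over all genes. The plot of both fraction differences shows Cacng3 and Cacna1e at -0.00 and 0.44 in the spinal culture and at 1.50 and 2.14 in the oculomotor culture.

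**Figure D4:**
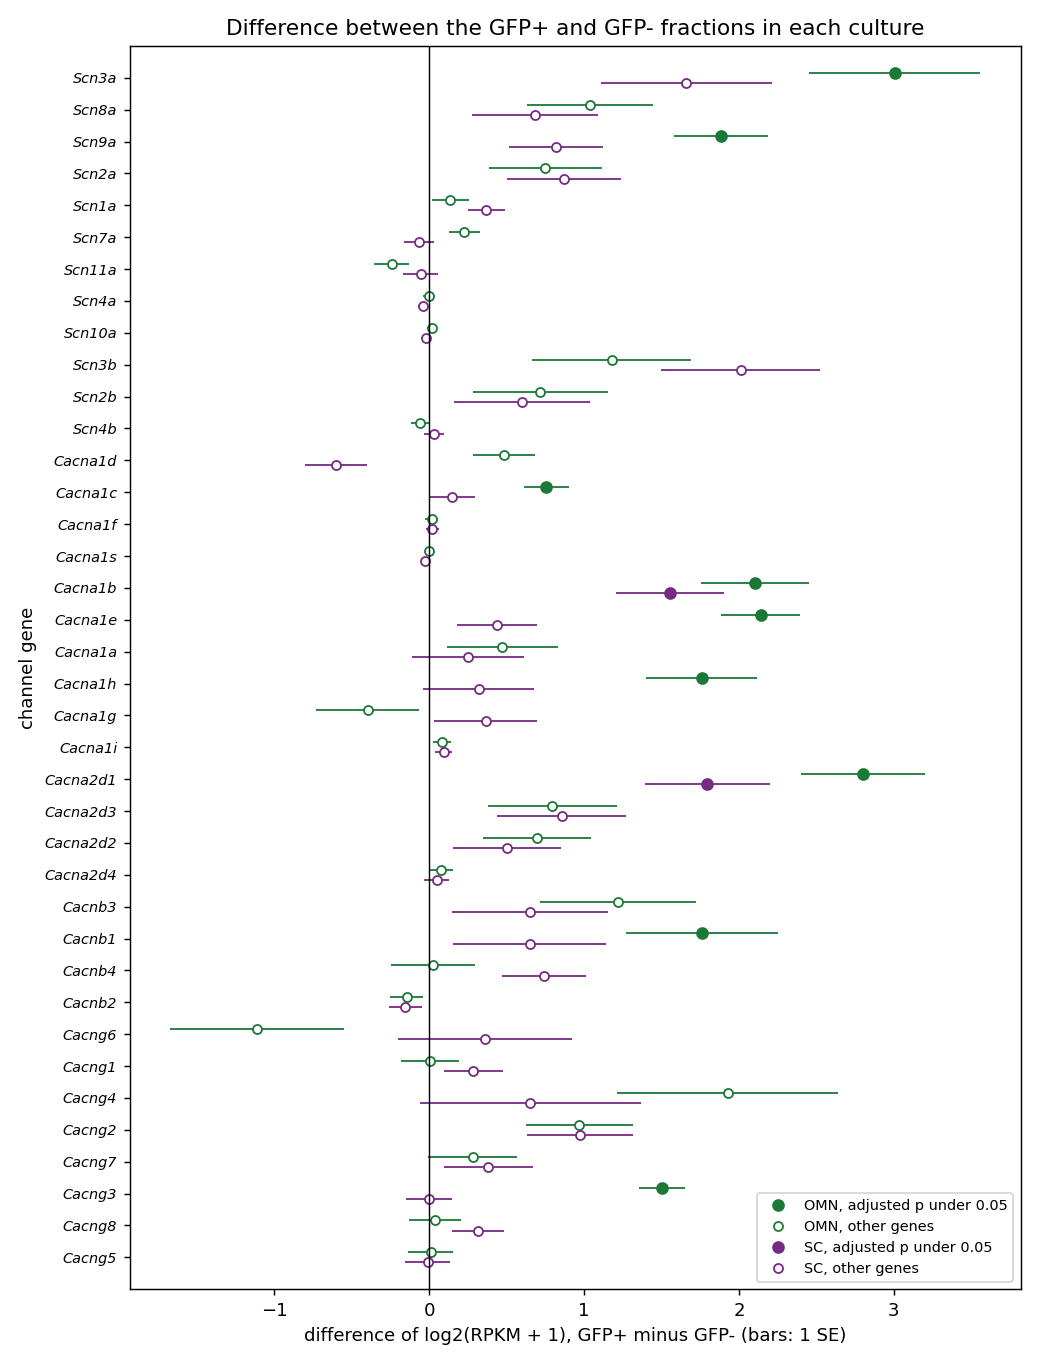
For each channel gene reported here, the points are the log2(RPKM + 1) difference of GFP+ minus GFP- in the OMN (green) and SC (purple) cultures, bars are 1 SE and filled points have an adjusted p under 0.05. Filled points are 9 in the OMN culture and 2 in the SC culture, and Cacna1d lies on opposite sides of 0, at 0.48 and -0.60.

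The neuronal content of the fractions moved with these differences. The sum of 10 neuron markers was 1476 to 2154 RPKM in OMN GFP+, 21.0 to 68.3 in OMN GFP-, 90.7 to 2143 in SC GFP+ and 64.7 to 297 in SC GFP-. Of the 10 markers, 9 were called higher in GFP+ in the oculomotor culture, 6 in the spinal culture, and none between the GFP+ groups. The interaction called 2 of them, Elavl4 and Nefm, and its median over the 10 was 2.81. The median log2 difference of OMN minus SC was 1.24 between the GFP+ groups and -1.73 between the GFP- groups, where none was called. No neuron marker was at 0 throughout a group, 3 of the 4 pluripotency markers were called lower in OMN GFP+ than in OMN GFP-, and the pluripotency sum given above was higher in all OMN GFP- samples than in any OMN GFP+ sample. Between spinal fractions no pluripotency marker was called, and the sums overlapped, with the higher median in GFP+. The part of the share of neurons in the fraction differences of the channel genes was not tested. Without the spinal pair of replicate 4, 5 channel genes were called higher in SC GFP+ (Cacna1b, Cacna2d1, Scn1a, Scn3a and Scn3b), the oculomotor count stayed at 9, and the count between GFP+ groups stayed at 1. All genes called higher in SC GFP+ rose from 88 to 296 in that setting. Of the 8 motor neuron markers, 6 were called higher in GFP+ in the oculomotor culture and 3 in the spinal culture. Of 7 progenitor markers, 2 were called lower in OMN GFP+ than in OMN GFP-, of 4 endoderm markers 1 was lower there and 2 were lower in SC GFP+ than in SC GFP-, and no interneuron or glia marker was called between fractions.

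Partner genes of the channels, 28 in the table, included the sodium leak channel Nalcn with its subunits, the anchoring ankyrins, active-zone scaffolds, AMPA receptor auxiliary genes and the repressor Rest. Between GFP+ groups 1 of 27 tested was called, against 0.603% of all genes. It was Rims1, an active-zone protein that binds presynaptic calcium channels. Rims1 measured 0 to 0.295 RPKM in OMN GFP+ and 1.18 to 1.74 in SC GFP+, with no overlap, and the difference was -1.14 ± 0.17 (adjusted p = 0.00688). Between oculomotor fractions 8 of 28 partners were higher in GFP+ and 1 was lower, against 3.81% of all genes higher and 2.34% lower. The lower one, named here for being a single gene, was Rest, at -2.84 ± 0.53 (adjusted p = 0.00129). Between spinal fractions 1 of 28 was higher, against 0.397% of all genes, and this was again Rims1, at 0.85 ± 0.19 (adjusted p = 0.0229). The interaction and the comparison of GFP- groups called none of 28, against 0.32% and 0.96% of all genes.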

How the data were processed

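RNA of sorted GFP+ and GFP- cells had been sequenced with SMART-seq2, which is unstranded, in 24 samples of 4 groups. The authors aligned reads with HISAT2 2.0.3 to mm10 (GRCm38) and deposited RPKM values per gene made with rpkmforgenes, and the annotation behind them is not given in the sources used here. The authors' own tests used DESeq2 1.12.4, which needs counts and was not applied here. Depth was estimated from the steps between low RPKM values, which were whole reads within 2.0% for 95.8% to 97.8% of values per sample. These estimates were used to describe depth and not as counts.

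Values were tested as log2(RPKM + 1) with limma 3.58.1 (R 4.3.3), empirical Bayes with a mean-variance trend, on genes above 0 in at least 2 samples, with Benjamini-Hochberg adjustment over all genes tested and a threshold of 0.05. OMN GFP+ against SC GFP+ was fitted on these 12 samples, where 4 channel genes did not pass the filter, and the other contrasts and the interaction on all 24. The code was tested on simulated data. Same-numbered fractions of a culture deviated together (correlations of 0.38 to 0.73 in OMN and 0.42 to 0.66 in SC, over 11952 genes), so results that change with the number as a block within each culture are given with it.

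Genes were named when called in a contrast, when their mean reached 1 RPKM in a group, or when highest in their subunit class, which named 24 of 40. Partner genes were named when called between GFP+ groups or in the interaction. The members and all lists (motor neuron, neuron, interneuron, progenitor, pluripotency, glia, muscle, sensory neuron and endoderm markers, and partners) were chosen with earlier results of these data known. Positions and exon overlaps come from GENCODE M21 and upstream sequences from RefSeq (GRCm38.p6). Alternatives were another pseudocount, filter and scaling, sample weights, no trend, blocks, subsets and leaving out each sample. Python 3.11.15, numpy 2.4.6, pandas 2.3.3 and matplotlib 3.10.9 were used. Some genes are not reported here.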

Additional observations from a re-analysis of the deposited data

Results flagged for a closer look

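Over 44 groups of 6 samples of 11 channel genes, 5 groups had a sample whose gap to its nearest neighbor exceeded 0.625 of the group's range on the log2(RPKM + 1) scale (Dixon's 95% criterion). Chance alone meets it in about 1 in 20 groups of normally distributed values, a rate that does not hold for groups with many zeros. A group at 0 in all but 1 sample meets it by construction, as did Cacng3 in OMN GFP- and Cacng6 in OMN GFP+. Cacna1e was highest in SC GFP- replicate 5, at 0.316 RPKM. Cacng3 was 0.267 RPKM, about 1 read, in OMN GFP- replicate 4 and 0 in the other OMN GFP- samples. Cacng4 was highest in OMN GFP- replicate 4 as well, at 5.18 RPKM. Cacng6 was 1.37 RPKM in OMN GFP+ replicate 2, with 0 in the others, and 6.19 RPKM in SC GFP- replicate 4, the library with high Mnx1.

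The difference between fractions was called unequal in the cultures, by the limma interaction, for Cacna1e (1.70 on the log2 scale) and Cacng3 (1.50). The call of Cacna1e was lost with an offset of 0.1 RPKM.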

How the results depend on the processing

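No called difference of a channel gene changed sign under these alternatives, but uncalled ones between GFP+ groups could: Scn3a was 0.95 in replicates 1 to 4 and -0.42 in replicates 5 and 6, Cacna1b 0.42 and -0.15, and Cacng4 0.29 and -0.97. Channel genes called between GFP+ groups numbered 1 of 36 tested, where 116 of 19240 genes were called in all. They numbered 2 of 21 with a mean of at least 1 RPKM required (193 of 11853 genes). In replicates 1 to 4 they numbered 0 of 35 (30 of 17863), and in the fit of all 24 samples 3 of 40 (342 of 22179). Between oculomotor fractions the count of 9 became 16 with sample quality weights, 13 with the replicate block within each culture and 15 with that block without the spinal pair of replicate 4, while all genes called rose from 1364 to 3795, 3644 and 3666. It was 7 of 18 tested with a mean of at least 1 RPKM, where 1489 of 11952 genes were called. In replicates 1 to 4 it was 7 of 38 tested, where 476 of 20942 genes were called. It was 8 to 10 when 1 sample was left out. Between spinal fractions the count of 2 became 5 with weights and 5 without the spinal pair of replicate 4 with or without the block. All genes called there rose from 272 to 484 with weights, to 633 without the pair and to 1238 without the pair with the block. The channel gene count was 0 in replicates 1 to 4 (1 of 20942 genes called in all) and 0 in the fit of that culture alone (4 of 20877). It was 1 without SC GFP- replicates 2 and 4 (429 of 21063). Leaving out 1 sample gave 0 to 6: 0 without SC GFP- replicate 1, SC GFP+ replicate 3 or SC GFP+ replicate 6, 1 without SC GFP+ replicate 1 and 6 without SC GFP+ replicate 4. All genes called were 186 without SC GFP- replicate 1 and 634 without SC GFP+ replicate 4. Calls were higher in GFP+ except Cacna1d, lower with the block without that pair and without SC GFP- replicate 4. The interaction count of 2 (71 of 22179 genes called in all) became 1 with a pseudocount of 0.1 RPKM (Cacng3, with Cacna1e lost), beside 74 of 22179. It was 1 of 18 tested with a mean of at least 1 RPKM (93 of 11952 genes called). In replicates 1 to 4 it was 0 of 38 tested (10 of 20942), and leaving out 1 sample gave 1 to 3. With the replicate block within each culture, 3 channel genes were called between spinal fractions (649 of 22179 genes in all) and 3 in the interaction (453 of 22179). The causes were not tested. The settings without the spinal pair of replicate 4 were chosen after seeing the data. Low depth limits genes near 0.1 RPKM.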
